A study of Mus musculus with 5 samples.

Results

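The laminin chains and integrin subunits printed on a 223-probe expression array were examined in the soleus, a slow postural calf muscle, of 5 wild-type C57Bl/6 mice. The members were chosen by gene symbol: the laminin alpha chains Lama2, Lama3, Lama4 and Lama5, the beta chains Lamb1 and Lamb2, the gamma chain Lamc1, and the integrin subunits Itgb1 and Itgav. Each of the 9 genes has 1 probe, and the array names 203 genes in all. The samples form 1 group, mice whose muscle had been reloaded, for 7 days according to the series title, and the titles number them 1, 3, 4, 5 and 6. Age, sex and the treatment before reloading are not given in the labels, and muscle from other conditions was not analysed here, so what can be compared is mouse with mouse. Each array received 3 microgram of total RNA from frozen sections of the whole muscle. In such bulk RNA, fewer cells of a type and less RNA per cell cannot be told apart.

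Laminins are the large cross-shaped proteins of basement membranes, each assembled from an alpha, a beta and a gamma chain. The alpha chain sets most of the binding to cell receptors. In skeletal muscle the alpha 2 chain, with beta 1 or beta 2 and gamma 1, forms the sheath around each fibre, and loss of it causes a congenital muscular dystrophy. The alpha 4 and alpha 5 chains belong to the basement membranes of capillaries and of the neuromuscular junction, beta 2 is concentrated at that junction, and alpha 3 is best known from epithelia. Integrins are the paired alpha and beta receptors that tie the cell's actin skeleton to this matrix. The beta 1 subunit takes part in most laminin receptors, and alpha v recognises matrix ligands such as fibronectin and vitronectin.

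Among the members above 0 in every mouse, the signals of the beta chains Lamb1 and Lamb2 differed most in how they varied between mice, and the promoters of both are shown for that reason. RefSeq promoter windows on build GRCm38.p6, from 250 bases before to 50 bases after the gene start, were used for 6 of the 9 members. Windows of Lama3, Lama4 and Lamc1 were not among them, so the motif counts below leave these genes out. The windows of Lamb1 and Lamb2 are printed 5′ to 3′ on the gene's strand, with capitals marking each GC box (GGGCGG on either strand). The Lamb1 window is chr12:31265043-31265342 and the Lamb2 window is chr9:108479612-108479911, both on the plus strand.
Lamb1: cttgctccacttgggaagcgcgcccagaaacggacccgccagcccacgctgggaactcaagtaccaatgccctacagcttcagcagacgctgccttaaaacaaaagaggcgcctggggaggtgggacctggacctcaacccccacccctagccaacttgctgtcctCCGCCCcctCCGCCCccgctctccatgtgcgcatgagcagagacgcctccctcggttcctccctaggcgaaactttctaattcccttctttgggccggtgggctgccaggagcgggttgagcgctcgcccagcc
Lamb2: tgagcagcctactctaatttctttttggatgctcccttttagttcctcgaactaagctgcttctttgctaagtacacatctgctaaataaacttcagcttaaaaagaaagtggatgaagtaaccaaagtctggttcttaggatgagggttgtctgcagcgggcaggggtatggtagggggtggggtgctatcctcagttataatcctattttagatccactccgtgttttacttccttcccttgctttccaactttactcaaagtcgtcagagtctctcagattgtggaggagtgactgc
The Lamb1 window was 63.7% G and C. It held 2 GC boxes, 84 and 75 bases before the start point of its entry but past the annotated gene start. The Lamb2 window was 44.0% G and C and held 0. Of 32851 promoter windows of this length, 35.7% held at least 1 GC box, and the median G and C content was 52.7%, with quartiles of 45.7% and 61.7%. The other windows used held 4 GC boxes for Lama5 and 1 each for Itgav, Itgb1 and Lama2, and their G and C content was 72.7%, 67.3%, 67.3% and 50.3%. The Itgav window, chr2:83724147-83724446, lies wholly past the annotated gene start at 83722303. A TATA box (TATAAA) or an AP-1 site (TGANTCA) was in 0 of the 6 windows on either strand, against 13.6% and 7.81% of all windows. These are matches of letters in a fixed window and show neither binding nor a cause of the signals below.

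The deposited values are linear array signals in arbitrary units whose reference is not known, and some lie slightly below 0. The 5 arrays differed in brightness, with totals from 70.8 to 137 and lowest values from -0.0168 in mouse 1 to -0.0041 in mouse 4. The size of the lowest value of an array serves below as a gauge of its background. The array of mouse 1 stood apart in the order of its probes, with a mean rank correlation across 146 probes of 0.875 with the other arrays, against 0.940 to 0.946 for the rest. Results that rest on it are given with and without it. As a check of the labelled tissue, the fibre markers Myh7, Myh2, Myh1, Myh4, Mb and Des, which are the 6 of 7 listed markers that the array holds, were above 0 in every mouse.

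Of the 9 members, 7 were above 0 in all 5 mice: Lama4, Lama5, Lamb1, Lamb2, Lamc1, Itgb1 and Itgav. Over all probes 65.9% were above 0 on all 5 arrays. All 9 members were above 0 in mice 3, 4, 5 and 6, where 83.9%, 91.0%, 73.5% and 84.8% of all probes were. In mouse 1, where 76.2% of all probes were above 0, Lama2 and Lama3 lay below it and the other 7 members above it. With the stricter gauge, a signal above the size of the array's own lowest value, 5 members passed on all 5 arrays: Lama4, Lama5, Lamb2, Lamc1 and Itgb1. By this gauge 45.3% of all probes passed on all 5. Lamb1 passed in mice 1, 3 and 4, Itgav and Lama3 in all mice but 5 and 1 respectively, and Lama2 in mice 3, 4 and 6. Where a signal is at or below 0, the transcript may still be present below the background.

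**Figure D1:**
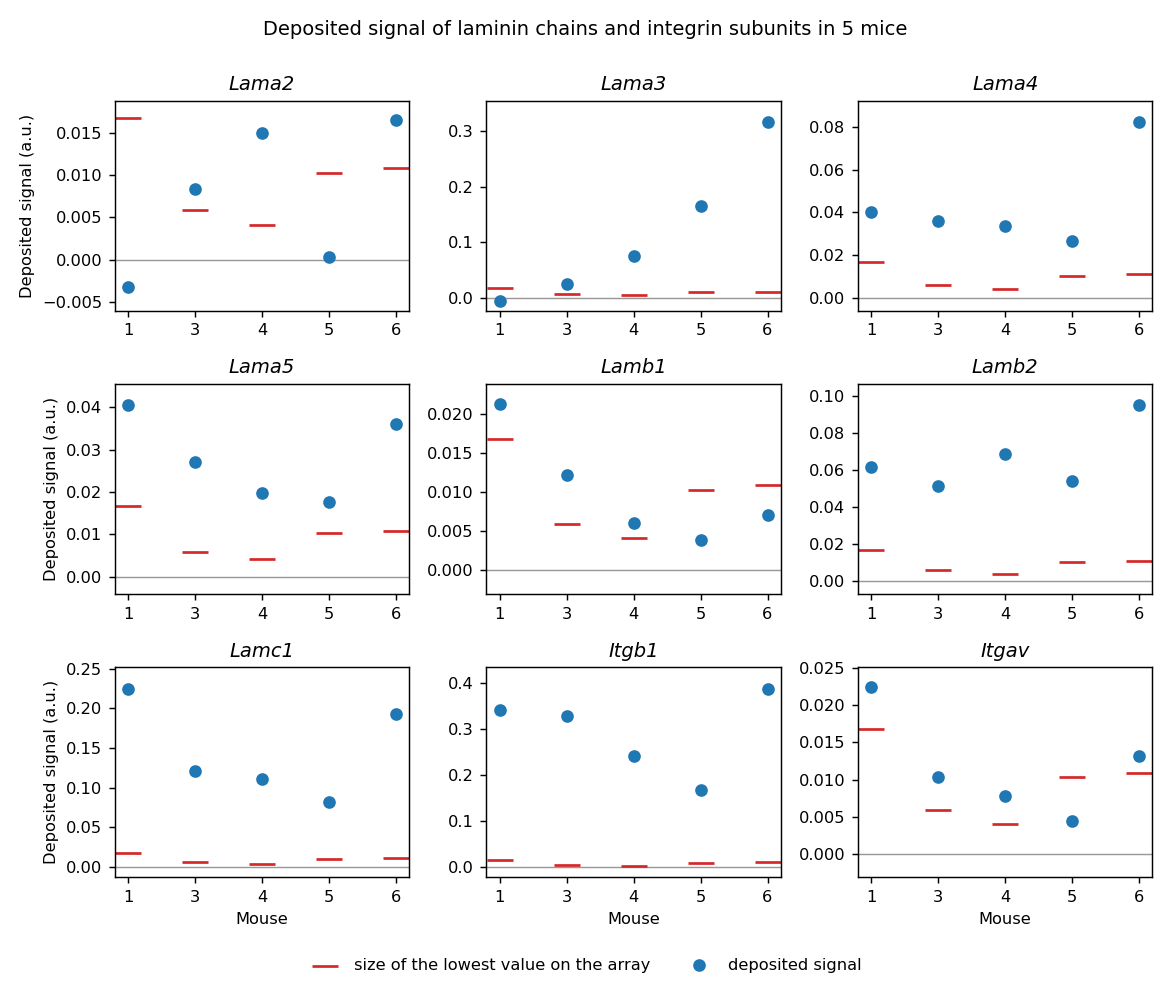
Deposited signal in arbitrary units (vertical axes, linear, each panel on its own scale) of the 9 members in mice 1, 3, 4, 5 and 6 (horizontal axes). Blue points are the signals, 1 array per mouse, red dashes the size of the lowest value on that array and the grey line 0; Lama2 and Lama3 lie below 0 in mouse 1, and Lamb1 lies under the dash in mice 5 and 6.

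Lama2 encodes the alpha chain of the fibre's own basement membrane. Its deposited signal was -0.0032 for mouse 1, 0.0084 for 3, 0.0150 for 4, 0.0003 for 5 and 0.0166 for 6. Mice 1 and 5 thus sat at the background, and the other mice were at most 3.66 times the size of the lowest value of their array. The level of a probe depends on the probe as well as the transcript, so this low signal does not rank Lama2 below the other chains.

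Lama3 encodes the alpha chain best known from skin and other epithelia. Its deposited signal was -0.0055 for mouse 1, 0.0254 for 3, 0.0745 for 4, 0.165 for 5 and 0.317 for 6. The 4 mice with a signal spanned from 4.31 to 29.1 times the size of the lowest value of their array, so all 4 lay above the background gauge. Without mouse 1, where it could be tested, its log2 SD between the other mice was 3.69 times that of probes of like signal (limma, unadjusted p = 0.0060, adjusted p = 0.60 over all probes tested). With values at or below 0 raised to the smallest positive value of their array, the ratio over 5 mice was 7.72 (limma, adjusted p = 0.16). Lamb3, the beta chain that partners alpha 3 in epithelia, was at 0.0085, 0.0015, 0.0100, -0.0010 and 0.0030 in mice 1, 3, 4, 5 and 6. Lamb3 was under the size of the array's lowest value in mice 1, 3, 5 and 6, so these values cannot show whether it varied with Lama3.

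Lama4, an alpha chain of capillary and junctional basement membranes, had a deposited signal of 0.0399 for mouse 1, 0.0358 for 3, 0.0337 for 4, 0.0264 for 5 and 0.0824 for 6. Mouse 6 stood above the rest. After quantile normalisation between arrays the signal was 0.0405 ± 0.00838 (SD, n = 5), with 0.0352 to 0.0387 in mice 1, 3, 4 and 5 and 0.0554 in mouse 6. The coefficient of variation (CV, the SD in percent of the mean) was 20.7%, and it was 3.76% without mouse 6. Mouse 6 was also highest when arrays were scaled to their median or total.

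Lama5, the other alpha chain of vessel walls, had a deposited signal of 0.0406 for mouse 1, 0.0270 for 3, 0.0197 for 4, 0.0176 for 5 and 0.0361 for 6. Normalised, it was 0.0277 ± 0.00595 (SD, n = 5), with 0.0380 in mouse 1 against 0.0236 to 0.0277 in the others. Mouse 1 was also highest with median scaling, whereas mouse 3 was highest when arrays were scaled to their total. Its CV of 21.5% was 14.8% without mouse 1.

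Ratios taken within an array do not depend on the scaling between arrays, and their change from mouse to mouse is described here, not their level, which depends on the 2 probes. The Lama4 to Lama5 signal ratio was 0.983 for mouse 1, 1.33 for 3, 1.71 for 4, 1.50 for 5 and 2.28 for 6. It was thus lowest in mouse 1 and 2.32 times as high in mouse 6, with an SD of 0.45 on the log2 scale, or 0.34 without mouse 1. Lama3 kept step with neither. The Lama3 to Lama5 ratio was 0.941 for mouse 3, 3.78 for 4, 9.37 for 5 and 8.78 for 6, a 9.96-fold span with a log2 SD of 1.54, or 0.73 without mouse 3. The Lama3 to Lama4 ratio spanned 8.80-fold over the same 4 mice, with a log2 SD of 1.35, or 0.75 without mouse 3. Ratios with Lama2 rested on mouse 5, where Lama2 was at 0.0003. The log2 SD was 2.35 against Lama4, 2.46 against Lama5 and 3.38 against Lama3, and without that mouse it was 0.61, 0.65 and 1.38.

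Lamb1, the beta 1 chain of most basement membranes, had a deposited signal of 0.0213 for mouse 1, 0.0122 for 3, 0.0061 for 4, 0.0038 for 5 and 0.0070 for 6. It was highest in mice 1 and 3, also under quantile, median and total scaling. It was 2.07 times the size of the array's lowest value in mouse 3 and at most 1.49 times that size in the others. Lamb2, the beta 2 chain enriched at the neuromuscular junction, was at 0.0620, 0.0516, 0.0688, 0.0540 and 0.0951 in mice 1, 3, 4, 5 and 6. These values were 3.69 to 16.8 times that size. Normalised, Lamb2 was 0.0649 ± 0.00809 (SD, n = 5), the narrowest CV of the 7 measured members at 12.5%. With median scaling it was 14.3%, but 28.1% with total scaling, where Lama5 (13.9%), Lamc1 (17.4%) and Itgb1 (24.8%) were narrower.

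The Lamb2 to Lamb1 signal ratio was 2.91 for mouse 1, 4.23 for 3, 11.3 for 4, 14.2 for 5 and 13.6 for 6. Mice 1 and 3 were low and mice 4, 5 and 6 high, with a 4.88-fold span. The log2 SD of 1.06 was the largest among the 21 pairs of measured members, and it was 0.82 without mouse 1, when Lama4 to Lamb1 was the largest at 0.83. Over 10585 pairs of measured probes the median of this SD was 0.76, with quartiles of 0.50 and 1.14, so the beta chain ratio lay between the quartiles of all pairs. Where Lamb1 was within the background, in mice 5 and 6, the size of the ratio is uncertain. With the lowest value of each array subtracted from all of its values, the ratio was 2.07, 3.18, 7.15, 4.56 and 5.92 in mice 1, 3, 4, 5 and 6, so mice 1 and 3 remained the lowest and the log2 SD was 0.72.

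**Figure D2:**
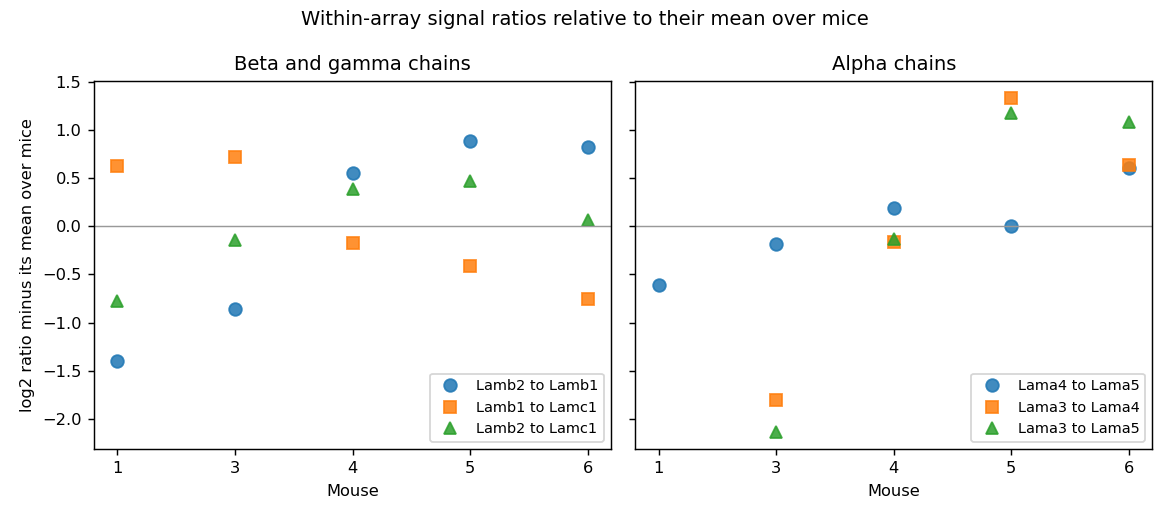
Log2 ratio of the deposited signals of 2 chains on the same array minus its mean over mice (vertical axis, log2 units) in mice 1, 3, 4, 5 and 6 (horizontal axis), for beta and gamma chains (left) and alpha chains (right). Points are single arrays and ratios with Lama3 have no value in mouse 1; Lamb2 to Lamb1 is low in mice 1 and 3 and high in mice 4, 5 and 6.

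Lamc1, the gamma 1 chain shared by nearly all of these laminins and once named B2, had a deposited signal of 0.225 for mouse 1, 0.120 for 3, 0.111 for 4, 0.0823 for 5 and 0.192 for 6. Normalised, it was 0.138 ± 0.0325 (SD, n = 5), highest in mouse 1 under each of the 3 scalings. It kept step with Lama5: the Lama5 to Lamc1 ratio was 0.181, 0.224, 0.177, 0.214 and 0.188 in mice 1, 3, 4, 5 and 6. The span of 1.27-fold and the log2 SD of 0.15 were the smallest among the 21 pairs, and the SD was 0.16 without mouse 1. The ratios of the beta chains to Lamc1 varied more, though both log2 SDs were below the median of all pairs. Lamb2 to Lamc1, with an SD of 0.50, was lowest in mouse 1 and 2.38 times as high in mouse 5. Lamb1 to Lamc1, with an SD of 0.65, was highest in mouse 3 and lower by a factor of 2.79 in mouse 6.

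Itgb1, the common beta subunit of laminin receptors, had a deposited signal of 0.340 for mouse 1, 0.328 for 3, 0.242 for 4, 0.167 for 5 and 0.387 for 6. Normalised, it was 0.285 ± 0.0739 (SD, n = 5), highest in mouse 3 and lowest in mouse 5 under each of the 3 scalings. Itgav, the alpha v subunit, was at 0.0224, 0.0104, 0.0078, 0.0044 and 0.0132 in mice 1, 3, 4, 5 and 6. It was highest in mouse 1 under each of the 3 scalings, and its CV of 43.5% was 20.6% without mouse 1. The Itgb1 to Itgav ratio was 15.2 in mouse 1 and between 29.3 and 37.9 in the other 4 mice, so it was lowest in mouse 1. In mouse 5 Itgav lay under the size of the array's lowest value. With the lowest value of each array subtracted, the ratio was 9.10, 20.5, 20.7, 12.0 and 16.5 in mice 1, 3, 4, 5 and 6, so mouse 1 was still lowest but mouse 5 lay close to it.

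Taking the 7 measured members as log2 deviations from their own means, their mean was 0.37 for mouse 1, 0.19 for 3, -0.20 for 4, -0.17 for 5 and -0.19 for 6. Their median was 0.48, 0.06, -0.13, -0.16 and -0.19 in mice 1, 3, 4, 5 and 6. Over all 146 probes the mean deviation was between -0.0002 and 0.0003, held near 0 by quantile normalisation, and the median deviation between -0.04 and 0.08. In mouse 1 Lamb1, Itgav, Lamc1, Lama5 and Itgb1 lay above their means, 5 of 7 members against 55.5% of all probes, and Lama4 and Lamb2 below. In mouse 4, by contrast, Lamb2 alone lay above its mean, 1 of 7 members against 52.7% of all probes. The counts in mice 3, 5 and 6 were 5, 2 and 3 of 7, against 45.2%, 54.8% and 50.0% of all probes. Positions relative to 0 depended on the scaling. With arrays scaled to their total, the mean was 0.07 for mouse 1, 0.22 for 3, 0.19 for 4, -0.51 for 5 and 0.02 for 6. Mice 4 and 6 thus changed sides of 0. The mean over all probes moved as well, to -0.29, 0.08, 0.35, -0.35 and 0.22 in mice 1, 3, 4, 5 and 6. As with quantile normalisation, the members lay above the mean of all probes in mice 1 and 3 and below it in mice 4, 5 and 6. In mouse 4, 7 of 7 members lay above their own mean, against 82.9% of all probes, and in mouse 5 0 of 7, against 32.9%. For the 5 members above the background gauge on all arrays, the means were 0.13, 0.09, -0.05, -0.20 and 0.02 in mice 1, 3, 4, 5 and 6. The deviations of the dim Lamb1 and Itgav in mouse 1 were 1.03 and 0.90, the largest of the 7.

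**Figure D3:**
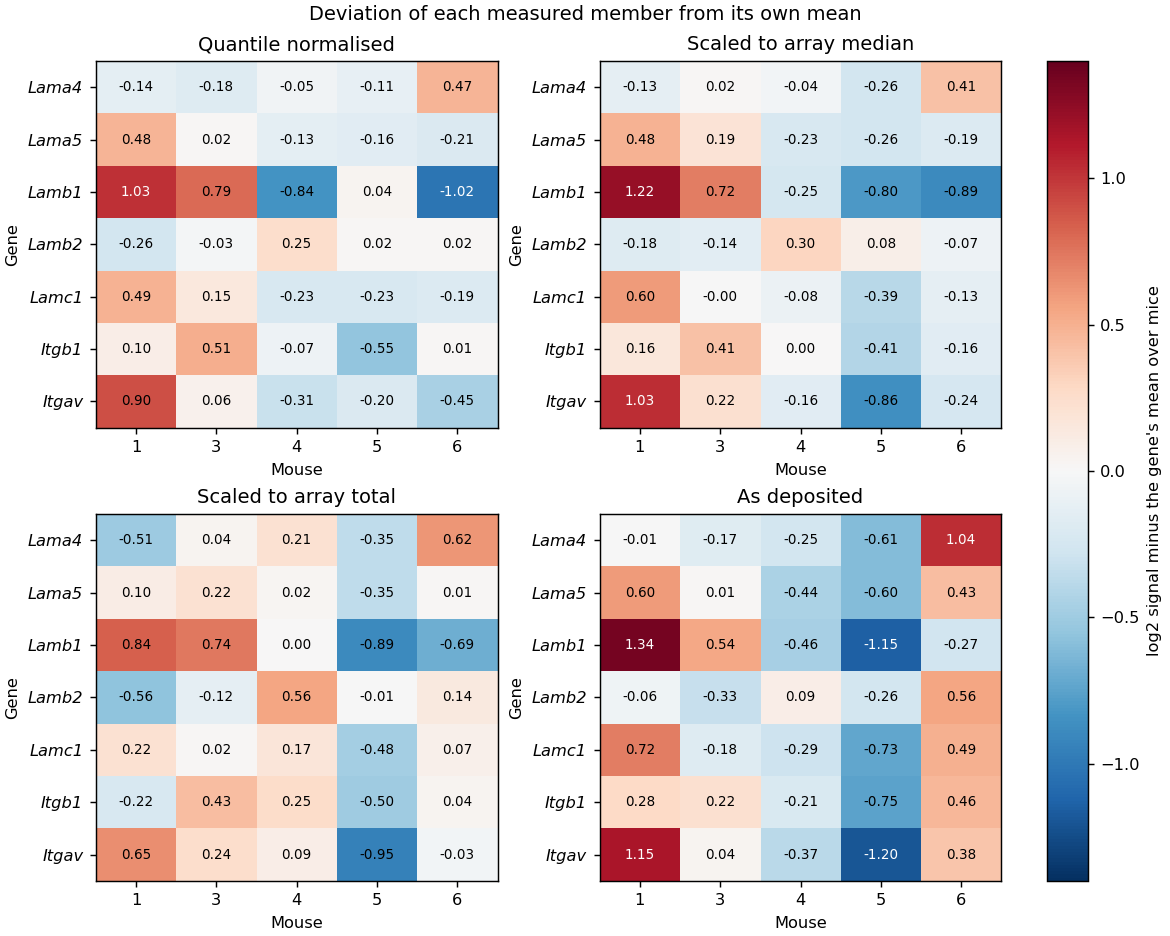
Log2 signal of each of the 7 measured members (rows) minus its own mean over 5 mice, in mice 1, 3, 4, 5 and 6 (columns), under 4 scalings (panels); red is above and blue below the mean, with the value in each cell in log2 units. Lamb1 and Itgav are red in mouse 1 in every panel, while Lamb2 is blue there.

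Pairwise, the ratios between members varied between mice to different degrees. Such an SD is also small where both members vary little, so by itself it does not show shared movement. The median normalised CV was 23.6% over the 7 members and 33.1% over all measured probes. The log2 SD of their within-array ratios had a median of 0.46 over the 21 pairs, against 0.76 over all pairs of measured probes, and 18 of the 21 pairs were below that value. Without mouse 1 the medians were 0.40 and 0.55, and 17 of the 21 pairs were below. Against pairs of the 129 probes at least as bright as the dimmest member, whose median was 0.66, 16 of the 21 were below. Lama5, Lamc1 and Itgb1 formed the steadiest trio, with SDs of 0.15, 0.24 and 0.30 for their 3 ratios. The widest pairs all held Lamb1 or Itgav: Lamb2 to Lamb1 at 1.06, Lama4 to Lamb1 at 1.04, Lamb2 to Itgav at 0.83 and Lama4 to Itgav at 0.74. With 5 mice, no correlation between members was computed.

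**Figure D4:**
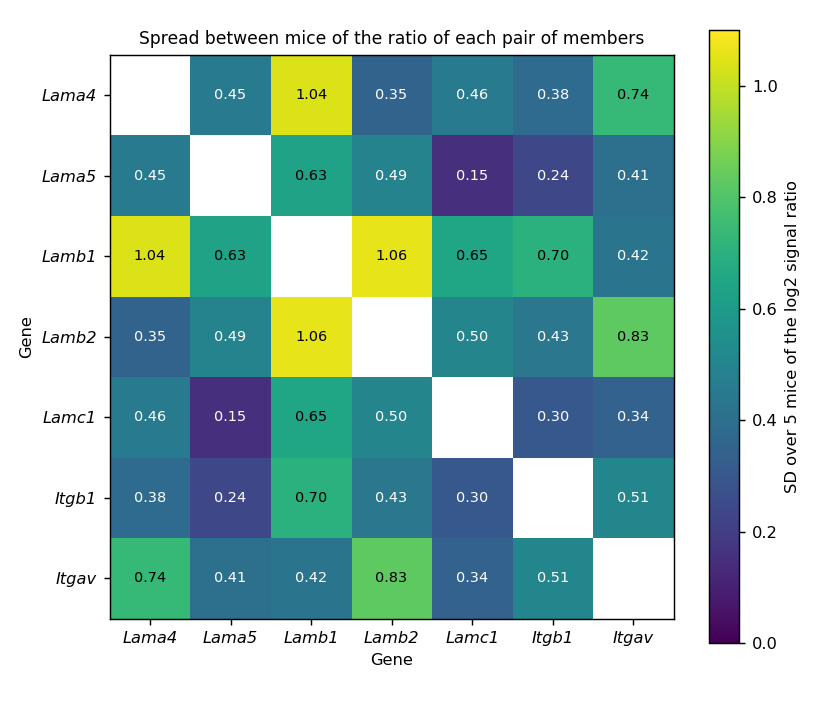
SD over 5 mice of the log2 ratio of deposited signals (colour and number, log2 units) for each of the 21 pairs of measured members, shown on both sides of the diagonal (both axes list genes). Dark cells are ratios that varied little between mice. Lama5 to Lamc1 is lowest at 0.15 and Lamb2 to Lamb1 highest at 1.06.

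In the test of each probe's variance against the trend in signal, 0 of the 7 measured members were called wider or narrower than probes of like signal (limma, Benjamini-Hochberg adjusted p below 0.05). Over the 146 probes tested 0% were called in each direction, and at an unadjusted p below 0.05 the share was 4.79% wider and 5.48% narrower, with 0 members among them. Lamb2 was nearest to a call, with an SD 0.404 times the trend (limma, unadjusted p = 0.053, adjusted p = 0.80). Lamb1 had the largest ratio, 1.19 times the trend (limma, adjusted p = 0.90), so its wide CV of 59.1% was close to that of equally dim probes. The median ratio was 0.776 over the 7 members and 1.02 over all probes. Each mouse gave 1 array, so noise of the measurement and differences between animals are joined in these SDs.

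For each of the 7 measured members, the 3 genes whose within-array ratio to it varied least over the 5 mice were listed. They were taken from the other named probes above 0 in every mouse, measured members included. Genes such as Lama2, Lama3, Myod1 and Itga8 could therefore not appear as neighbours. For Lamc1 they were Ldha, lactate dehydrogenase A, at a log2 SD of 0.077, the glucose transporter Slc2a1 at 0.099 and the cell cycle inhibitor Cdkn2d at 0.12. Slc2a1 was also closest to Lama5, at 0.083, followed by Des (desmin) at 0.12 and the kinase Dmpk at 0.15. Itgb1 was closest to Myh7, the slow myosin heavy chain, at 0.12, then to the muscle transcription factor Mef2c and the receptor Igf2r, each at 0.15. Lamb2 was closest to Ghr (growth hormone receptor, 0.12), Cpt1b of fatty acid import (0.14) and Cd34 (0.16). For Lama4 the nearest were the protease inhibitors Timp2 at 0.14 and Timp1 at 0.18 and the receptor Fgfr1 at 0.19. The dim members had looser neighbours: Nos3 (0.16), Itgav (0.42) and Pdgfb (0.43) for Lamb1, and Igfbp5, Jund and Nos3 (0.25, 0.25 and 0.29) for Itgav. Over 4 mice, an addition made after the values were seen, Lama3 was closest to Ldhc at 0.45 and Lama2 to Csk at 0.56. In mouse 5 Lama2 was at 0.0003 and Csk at 0.667 times that, both under the size of the lowest value, 0.0103. These are the extremes of many pairs over few mice and describe these arrays alone.

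Related genes were read from fixed lists. Of 20 other basement membrane and laminin receptor genes the array holds Lamb3, described above. Of 20 other integrins and adhesion partners it holds Itgb5, Itga2 and Vcam1, which were above 0 in all mice, with 0 of 3 called wider or narrower (limma). Itgb5, a beta partner of alpha v, was at 0.0287, 0.0290, 0.0319, 0.0186 and 0.0496 in mice 1, 3, 4, 5 and 6, and its normalised CV of 14.8% was narrower than that of Itgav. Itga2, a collagen receptor subunit, reached at most 0.0074 and Vcam1 at most 0.0067. Itga8, added after its values were seen, was at -0.0016 in mouse 1 and 0.0336 in mouse 6. Of 11 ligands of alpha v and beta 1 integrins the array holds Fn1 (2 probes), Tnc, Thbs1 and Thbs2, with 0 of 5 probes called (limma). Their summed deposited signal was 1.56, 1.24, 0.642, 0.680 and 2.55 in mice 1, 3, 4, 5 and 6, lower in mice 4 and 5 than in the others. Most of it came from 1 Fn1 probe, at 1.23, 0.916, 0.472, 0.520 and 1.90. The mean log2 deviation of the 5 probes was also lowest in mice 4 and 5. Quantile normalised, it was -0.52 and -0.99 there, and with total scaling -0.11 and -1.53. In mouse 5 it includes Thbs2 at 0.0001, under the size of the array's lowest value.

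Markers of other cell types were set beside these values. All 6 endothelial markers on the array, of 8 listed, were above 0 in every mouse: Cdh5, Cd34, Pecam1, Flt1, Kdr and Tek. Their summed deposited signal was 0.416 for mouse 1, 0.369 for 3, 0.512 for 4, 0.507 for 5 and 0.876 for 6. The sum was highest in mouse 6, the array on which most probes were bright as deposited. The mean log2 deviation of the list peaked in mouse 4 instead. Quantile normalised, it came to 0.56 there and 0.25 in mouse 6, and with total scaling to 0.87 and 0.52. Lama4 peaked in mouse 6 under each scaling. That mean weighs the dim Tek like the brighter markers. As deposited, Tek alone of the 6 was brighter in mouse 4 than in mouse 6, with 0.0144 and 0.0107. Tek lay under the size of the array's lowest value in mice 1, 5 and 6. The deposited values are not scaled for brightness, and the array median was 0.0180 in mouse 4 and 0.0338 in mouse 6. They therefore do not show that Tek alone placed the scaled mean highest in mouse 4. Taken as the scaled mean of the 6 markers, endothelial signal peaked in mouse 4 and Lama4 in mouse 6. Whether this holds for the list without Tek was not tested. The pericyte marker Pdgfrb was at 0.0314 to 0.0534 as deposited, where mouse 6 was highest, but quantile normalised it deviated by -0.19 in mouse 6 and 0.20 in mouse 1, and with total scaling it was highest in mouse 4, at 0.28. The fibroblast marker Pdgfra was at 0.0474, 0.0485, 0.0172, 0.0086 and 0.0336 in mice 1, 3, 4, 5 and 6, high in mice 1 and 3, as Lamb1 was, also under quantile and total scaling. The immune markers Il1b and Il6, the fat marker Lipe and the satellite cell marker Myf5 were at or below 0 in every mouse, while the fat marker Fabp4 was above 0 in every mouse. As deposited, Myod1, another satellite cell marker, ran from -0.0088 in mouse 1 to 0.0219 in mouse 6, in the same order of mice as Lama3. This order was not tested under median scaling. The arrays differed in brightness, with totals of 81.7 in mouse 5 and 131 in mouse 6. Between these mice Myod1 rose from 0.0162 to 0.0219, by a smaller factor than the total. Lama3 rose from 0.165 to 0.317, by a larger factor than the total. Relative to the total, Myod1 was thus higher in mouse 5 and Lama3 in mouse 6, so the shared order holds only as deposited or was not tested. Of 4 Schwann and nerve markers the array holds 0. The part of any cell type in the laminin and integrin signals was not tested.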

How the data were processed

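The authors deposited linear array intensity values for 223 probes of 5 samples. For scanner, background correction and scaling, the methods are not given in the labels or the file. Probes were named through the platform annotation, with symbols updated by gene identifier to the GRCm38.p6 table: 205 probes had 1 symbol and 18 had no entry. Gene members and lists were chosen with earlier results of these data known. All 9 members are described.

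Column medians differed by over 10%, so log2 values of the 147 probes above 0 on all arrays were quantile normalised, and 1 probe that was brightest on every array was left out of tests. Ratios used deposited values. Each probe's log2 variance was tested against the trend of variance with brightness (function fitFDistRobustly, limma 3.58.1, statmod 1.5.0, R 4.3.3) with Benjamini-Hochberg adjustment over all probes at 0.05. The test was checked on simulated data. Its p-values compare probes on these arrays and say nothing of other mice, and precision is limited by the 5 arrays. Named genes were all members, the 3 genes nearest to each, and the fixed lists. Alternatives were deposited values, median and total scaling, leaving out the dimmest 25% of probes or each mouse, a floor for values at or below 0, no variance trend and subtraction of each array's lowest value. Figures were drawn with matplotlib 3.10.9.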

Additional observations from a re-analysis of the deposited data

Results flagged for a closer look

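In 17 sets of 5 or 4 values (the 9 members, 7 ratios and the mean deviation), a mouse far from the others was looked for with Dixon's criterion, which chance meets in about 1 of 20 sets of independent values. It was met in 3 sets. For the normalised signal of Lama4, mouse 6 was separated by a gap of 0.828 of the whole range (0.0554 against at most 0.0387). For Lama5, mouse 1 was separated by 0.719 of the range, and for Itgav, mouse 1 was separated by 0.724 of the range. The array of mouse 1 also had the lowest rank correlation with the others, and its part in these gaps was not tested.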

How the results depend on the processing

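The count of members called wider or narrower was 0 in all 11 alternatives. The number of members above 0 on every array was 7 to 9 with 1 mouse left out, and 5 by the stricter gauge. The median CV of 23.6% was 40.8% as deposited, where differences in whole-array brightness add to it, 24.0% to 28.1% with median or total scaling, and 18.3% to 26.1% with 1 mouse left out. With total scaling the mean deviation moved to 0.072 in mouse 1, 0.19 in mouse 4 and -0.51 in mouse 5, where that of all probes was -0.29, 0.35 and -0.35. As deposited it moved to -0.76 in mouse 5 and 0.44 in mouse 6, where that of all probes was -0.60 and 0.64. Without mouse 1 the mean deviation of the members was 0.36, -0.14, -0.08 and -0.14 in mice 3, 4, 5 and 6. The cause was not tested beyond the change of scale.

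The log2 SD of the Lamb2 to Lamb1 ratio was 0.82 to 1.17 with 1 mouse left out, and 0.34 to 0.52 for Lama4 to Lama5. The ratios with Lama2 or Lama3 moved most. With the lowest value of each array subtracted, the SD of Lama2 to Lama3, Lama4 and Lama5 was 1.35, 0.37 and 0.48. With 1 mouse left out, the ranges were 1.38 to 4.14, 0.61 to 2.83 and 0.65 to 2.98 in that order, 0.75 to 1.65 for Lama3 to Lama4 and 0.73 to 1.89 for Lama3 to Lama5. No paired analysis was possible because the samples form 1 group. Quantile-normalised ratios with Lama2 or Lama3, which were not above 0 on every array, could not be computed. The alternatives without mouse 1 for deviations and pairs, the brighter comparison pairs and the restriction to brighter members were chosen after seeing the data.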
